A study of Caenorhabditis elegans with 2 samples.

Results

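The 10 genes described here encode core parts of Wnt and β-catenin signalling in Caenorhabditis elegans, and the data show where a tagged TBX-2 protein was recovered around them. The genes were taken by name: the Dishevelled genes mig-5 and dsh-2, the Axin gene pry-1, the APC-related gene apr-1, the β-catenin genes bar-1, wrm-1, sys-1 and hmp-2, the kinase gene lit-1 and the TCF gene pop-1. They are 10 of 19973 protein-coding genes on 6 chromosomes. A region of chromatin immunoprecipitation sequencing (ChIP-seq) was assigned to a gene when its summit, the point of highest signal, lay inside the gene or within 5 kb of one of its transcript starts. The T-box protein TBX-2 regulates transcription and is known in C. elegans for its role in the pharynx.

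Both samples came from strain OP159, which carries the mutant allele unc-119(ed3) and the integrated transgene wgIs159, which supplies TBX-2 fused at its C terminus to GFP-FLAG. The cells that express the fusion are not given in the labels. Whole hermaphrodites were collected as first-stage (L1) larvae 6 hours after synchronization by starvation following bleaching. The protein was precipitated with an antibody to GFP, although an antibody field of the labels reads tbx-2. The 2 samples are biological replicates of 1 group and share 1 strain, and no strain without the transgene and no second condition was analysed here. In whole animals, binding in a few cells cannot be told apart from weaker binding in many.

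Wnt proteins bind Frizzled and related receptors, and Dishevelled passes the signal on. Without a signal, a complex built on Axin and APC marks β-catenin for destruction, and with a signal β-catenin accumulates and acts with a TCF protein on target genes. C. elegans divides these tasks among several β-catenins: BAR-1 acts in the canonical pathway, WRM-1 works with the kinase LIT-1 to lower nuclear POP-1, SYS-1 is a coactivator of POP-1, and HMP-2 joins cadherin to the cytoskeleton at cell junctions. The WRM-1 and SYS-1 branch is known for dividing the daughters of asymmetric cell divisions into different fates.

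TBX-2 regions lay at 8 of the 10 genes, and 2 genes, apr-1 and bar-1, had none. These 8 genes held 14 regions of the list thresholded by irreproducible discovery rate (IDR), which contains 4384 regions made from both replicates. By the same rule, 36.1% of all protein-coding genes had an IDR summit. Window length bears on such a count. Among the 18464 protein-coding genes with a window under 14 kb the share was 34.6%, and 9 of the 10 Wnt genes have such a window, of which 7 had a summit. A promoter, here from 1000 bp before a start to 200 bp after it, held an IDR summit at 6 of the 10 genes, against 15.6% of all protein-coding genes. These 6 were mig-5, dsh-2, wrm-1, sys-1, lit-1 and pop-1. The mig-5 summit was shared with the promoter of a neighbouring gene, so 5 genes had a promoter summit that was theirs alone. The 15.6% includes shared summits, and the share of all genes with an unshared one was not computed. The genes were proposed with results of these data known, so these counts describe the genes and were not tested.

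**Figure D1:**
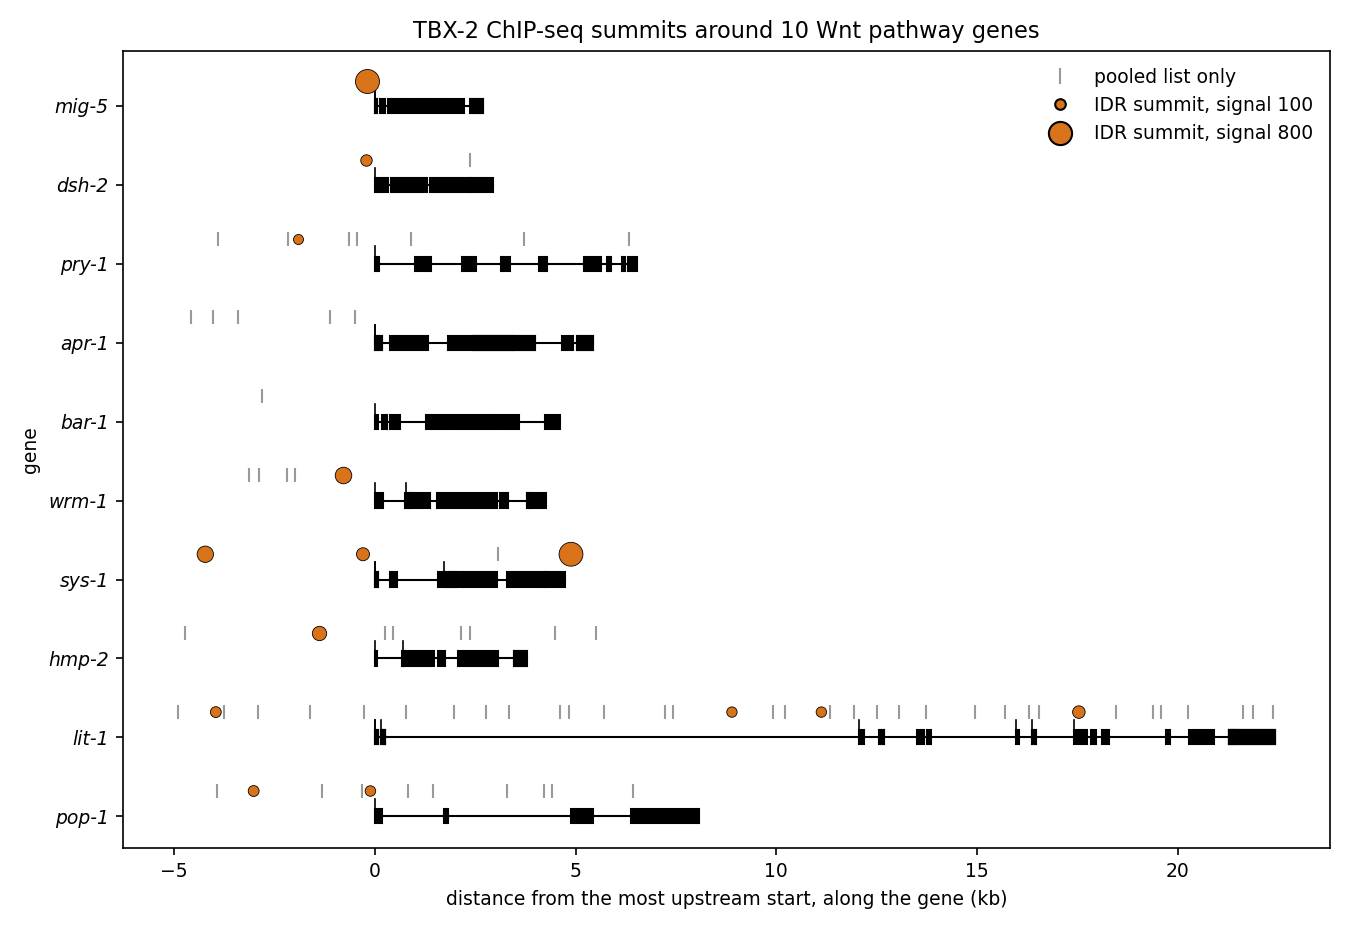
Position of each summit along the 10 genes, in kb from the most upstream transcript start, with exons as black boxes and starts as short vertical lines. Orange circles are the 14 IDR summits, with an area that grows with signal, and grey ticks are summits of the pooled list alone. The mig-5 and dsh-2 circles sit just upstream of the start, while the 4 circles of lit-1 spread over the gene and its upstream side.

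Stretches of 101 bases centred on summits show the DNA under the promoter regions of mig-5, dsh-2 and wrm-1 and under an intronic region of lit-1. They are given 5′ to 3′ on the strand of the gene, from RefSeq assembly WBcel235, which has the coordinates of ce11. Capitals mark a match, on either strand, to 1 of 6 short motifs that were searched: the T-box letters GGTGTGA and GGTGTG (the second is contained in the first), the TCF letters CTTTGAA and CTTTGAT, the GATA letters TGATAA, and GAGAGA.
mig-5, chrII:8185161-8185261, minus strand: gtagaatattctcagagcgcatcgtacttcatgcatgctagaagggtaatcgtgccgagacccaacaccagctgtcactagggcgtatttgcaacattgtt
dsh-2, chrII:5081347-5081447, minus strand: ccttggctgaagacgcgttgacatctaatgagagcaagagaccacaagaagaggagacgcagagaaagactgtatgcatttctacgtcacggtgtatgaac
wrm-1, chrIII:5722016-5722116, plus strand: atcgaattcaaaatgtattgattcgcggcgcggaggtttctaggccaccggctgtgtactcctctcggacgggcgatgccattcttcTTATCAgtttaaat
lit-1, chrIII:13713061-13713161, plus strand: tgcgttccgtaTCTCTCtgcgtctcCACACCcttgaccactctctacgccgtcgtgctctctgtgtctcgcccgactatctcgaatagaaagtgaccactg
The windows of mig-5 and dsh-2 held none of the 6 motifs, and that of wrm-1 held TGATAA once on the opposite strand. That of lit-1 held GAGAGA and GGTGTG, both on the opposite strand. It is the only lit-1 window with any of the 6, and that of the strongest lit-1 region held none.

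The strongest region at any of the 10 genes lay at mig-5, which encodes a Dishevelled protein (WBGene00003241, chromosome II, 8182323 to 8185023, minus strand). The region spans 8185040 to 8185366, between genes, with its summit 188 bp upstream of a mig-5 start. Its signal, a strength given by the authors' caller on an unstated scale, was 348 in replicate 1, 511 in replicate 2 and 859 in the pooled list. It ranked 58 and 79 among the 30000 regions of each replicate list and 71 in the IDR list. The summit lies in a gap of 419 bp between mig-5 and cct-1, which is transcribed the other way and encodes a subunit of the cytosolic chaperonin. It is 232 bp upstream of the cct-1 start, so the region cannot be given to either gene alone. The list of replicate 2 held 1 region in the mig-5 window and that of replicate 1 held 2.

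The other Dishevelled member, dsh-2 (WBGene00001102, chromosome II, 5078233 to 5081174, minus strand), had 1 much weaker region at a like distance. Its summit lay 223 bp upstream of the only start, in the promoter of dsh-2 and of no other gene (region 5081319 to 5081466). The signal was 33.5 in replicate 1, 99.1 in replicate 2 and 130 in the pooled list. The replicates ranked it 4074 and 1942, so it stood higher in replicate 2. The gap upstream of dsh-2, to C04G6.4 on the same strand, measures 315 bp. Another pooled region, in a coding exon of dsh-2, had a signal of 37.8 and a pooled rank of 8601.

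Among destruction complex genes, pry-1 had 1 region near the threshold and apr-1 had none. The pry-1 gene encodes an Axin-like scaffold (WBGene00004202, chromosome I, 14172828 to 14179360, minus strand). Its IDR region (14181073 to 14181472) lay 1913 bp upstream of the start, outside the promoter window, and was the weakest of the 14. Its signal of 79.4 and its rank of 4246 compare with the lowest signal of the IDR list, 76.8. Replicate 1 gave a signal of 46.9 and rank 2768, and replicate 2 a signal of 29.8 and rank 7154. It was the only one of the 14 with a lower signal in replicate 2. Inside the promoter, the strongest pooled region lay 432 bp upstream with a signal of 54.2 and rank 6183, below the threshold, and ranked 7615 and 5994 in the replicates. The pooled list held 8 summits in the pry-1 window.

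For apr-1 (WBGene00000156, chromosome I, 8050037 to 8055475, plus strand), whose product is related to the APC tumour suppressor, 5 pooled regions all lay upstream of the start and none reached the IDR list. The strongest, 4568 bp upstream, had a signal of 60.1, a pooled rank of 5564 and replicate ranks of 8813 and 5498, and its nearest start was that of K04G2.12. In the promoter, 485 bp upstream, the signal was 15.6 and the rank 22780, with a match in replicate 1 only (rank 11585). The nearest IDR summit of any gene lay 22026 bp upstream of apr-1, in the promoter of eif-2beta (rank 4133).

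The 4 β-catenin genes ranged from a strong promoter region to no region. At wrm-1 (WBGene00006943, chromosome III, 5722850 to 5727115, plus strand) the only IDR summit lay 784 bp upstream of the nearest start, in the promoter of no other gene (region 5721929 to 5722191). Its signal was 160 in replicate 1, 202 in replicate 2 and 367 in the pooled list, with ranks of 429 and 682 in the replicates. Of the regions in the promoter of one of the 10 genes and of no other gene, this was the strongest. The other 4 pooled summits of wrm-1 lay between 1978 and 3123 bp upstream, with signals from 18.2 to 44.6.

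Of the 3 IDR regions of sys-1 (WBGene00006379, chromosome I, 9980063 to 9984794, minus strand), only the weakest was in its own promoter. That summit lay 292 bp upstream of a start (region 9984886 to 9985285), with a signal of 64.3 in replicate 1, 125 in replicate 2 and 192 in the pooled list, and ranks of 1844 and 1409. The strongest (9979750 to 9980053) had signals of 356 and 496 in the replicates and 849 in the pooled list. It lay 156 bp beyond the 3′ end of sys-1 and 245 bp upstream of eif-3.C, which encodes a subunit of translation initiation factor eIF3. The third (9988805 to 9989137, pooled signal 354) lay 4218 bp upstream of sys-1, in promoters of the histone genes his-67 and his-68 and of the Argonaute gene alg-5. Its replicate signals were 134 and 221. The nearest start thus belonged to another gene for the stronger 2 of the 3.

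The junctional β-catenin gene hmp-2 (WBGene00001979, chromosome I, 14738882 to 14742671, plus strand) had 1 IDR summit, 1385 bp upstream of its start. With a pooled signal of 253, replicate signals of 88.8 and 159 and ranks of 1185 and 1012, the region (14737398 to 14737600) was well inside the list. It lay 205 bp upstream of K05C4.7, a gene on the same strand that ends 85 bp before hmp-2. In the promoters of hmp-2 itself the strongest pooled region had a signal of 43.7 and rank 7541. It lay in an intron, 250 bp downstream of the first start and upstream of the second, in whose promoter it falls.

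No IDR region was assigned to bar-1, the β-catenin of the canonical pathway (WBGene00000238, chromosome X, 7166005 to 7170625, minus strand). The pooled list held 1 summit in its window, where 43.5% of all protein-coding genes had 1 or none. That summit lay 2806 bp upstream, with a pooled signal of 27.4 and rank 11803. It was matched at rank 18584 in replicate 2 and unmatched within 100 bp in replicate 1. A gap of 7015 bp separates bar-1 from F43E12.1 upstream, and the nearest IDR summit lay 11172 bp upstream, nearest to the start of F43E12.1 (signal 391). The wider pooled list holds background as well as peaks. In it, 10 of the 10 genes had a summit within reach, against 67.1% of all protein-coding genes. For promoters the count was 9, against 39.3%. The exception in promoters was bar-1.

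The kinase gene lit-1 (WBGene00003048, chromosome III, 13701991 to 13724404, plus strand), a Nemo-like kinase gene, had the most regions, 4 in the IDR list and 36 in the pooled list. It is also the longest of the 10, with 7 annotated start positions and a window of 27414 bp. The strongest IDR region (13719442 to 13719570) lay 127 bp downstream of the most internal start, in the 5′ UTR of a short isoform and in intron 6 of the longer transcript W06F12.1d.2. Its signal was 77.5 in replicate 1, 91.7 in replicate 2 and 173 in the pooled list, with ranks of 1423 and 2126. A second promoter region (13712911 to 13713310), whose sequence is given above, lay 934 bp upstream of another internal start, within intron 2 of that transcript. Its replicate signals were 43.5 and 47.5 and its pooled signal 92.1. The third (13710685 to 13711084, pooled signal 91.4, replicate signals 34.8 and 57.2) was in the same intron, and the fourth (13697835 to 13698234, pooled signal 107, replicate signals 48.8 and 54.3) lay 3956 bp upstream of the first start.

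Summits of the pooled list were dense over lit-1. Its 36 summits amount to 13.1 per 10 kb of window, against 2.78 over all protein-coding genes and 4.58 over the other 9 Wnt genes. In the whole annotation 4 genes had 36 or more, the others being crh-1 (39), pde-3 (39) and spsb-1 (36), which are named because the group is small. Among the 167 genes with a window at least as long as that of lit-1 the median was 14 pooled summits, and 8.38% had 4 or more IDR summits. In the IDR list lit-1 had 1.46 summits per 10 kb of window, against 0.470 over all protein-coding genes. This IDR value was higher at sys-1 (2.56) and pop-1 (1.53) and lower at the rest of the 10 genes. Of the 32 lit-1 pooled regions below the threshold, signals ran from 12.3 to 66.2 with a median of 22.1. Only 10 of these 32 were matched in both replicates, 18 in 1 and 4 in neither. The control signal at the locus was not analysed here.

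The TCF gene pop-1 (WBGene00004077, chromosome I, 2822243 to 2830311, minus strand), which encodes the nuclear end point of the pathway, had 2 weak regions upstream. One (2830218 to 2830617) lay 107 bp upstream of its only start, in the promoter of pop-1 alone, with signals of 41.3 and 51.1 in the replicates and 95.8 in the pooled list. Its ranks were 3174 and 4200. The other (2833125 to 2833524) lay 3014 bp upstream with signals of 41.4 and 66.5, a pooled signal of 109, and ranks of 3163 and 3165. Upstream, 15547 bp separate pop-1 from ccb-2, and pop-1 held the nearest start to both summits.

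**Figure D2:**
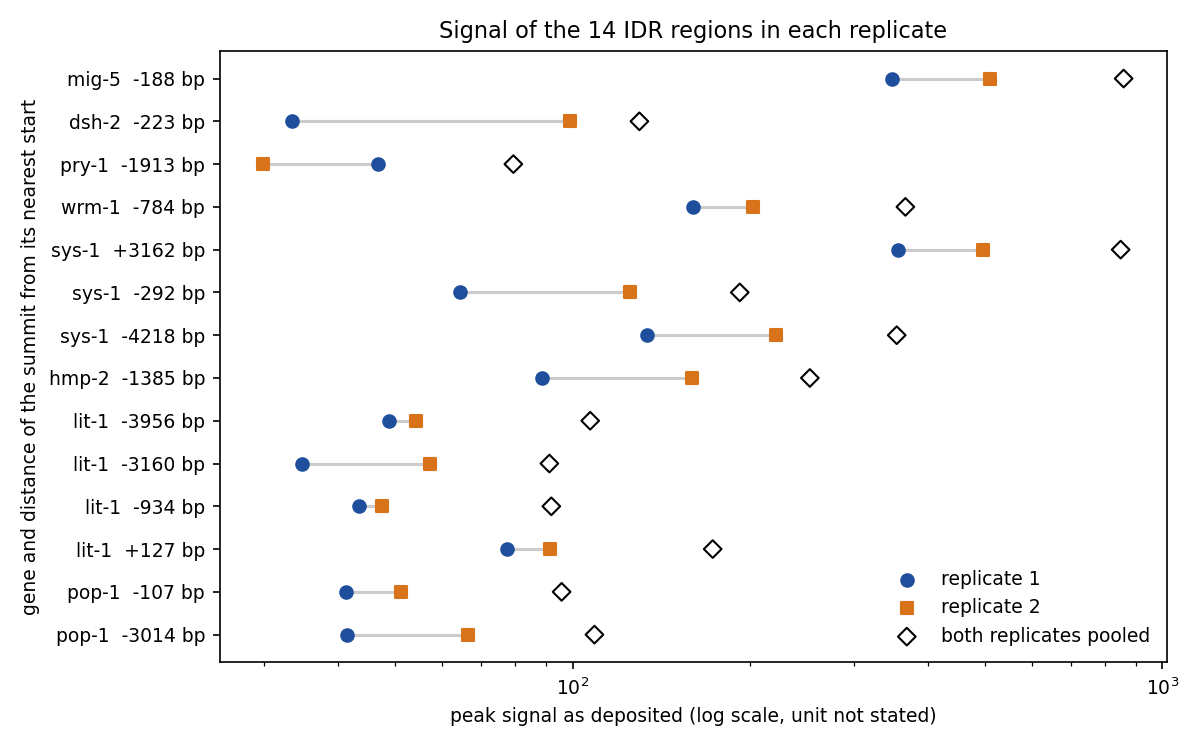
Peak signal of the 14 IDR regions on a log axis in replicate 1 (blue circles), replicate 2 (orange squares) and the pooled list (open diamonds), 1 row per region with the distance of its summit from the nearest start of the gene. Replicate 2 lies to the right of replicate 1 in 13 of 14 rows, the exception being pry-1, and the mig-5 and eif-3.C-proximal sys-1 regions stand apart at the strong end.

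Ranks differed between the replicates most at pry-1 and dsh-2. Each of the 14 regions was matched within 100 bp in both replicate lists, as were 97.2% of all IDR regions, and matched summits lay at most 31 bp away in replicate 1 and 40 bp in replicate 2. Both replicates entered the IDR list, so a match is not independent evidence for a region. The median ratio of replicate 2 to replicate 1 signal was 1.43 (range 0.637 at pry-1 to 2.96 at dsh-2), against 1.61 over all matched IDR regions. Ranks differed by a median of 1.43-fold, against 1.27-fold over all, with a range from 1.00 at the distal pop-1 region to 2.58 at pry-1. In both replicates, 12 of the 14 ranked among the 4384 strongest regions, compared with 80.2% of all IDR regions. The other two, the pry-1 region and the lit-1 region 934 bp upstream of an internal start (rank 4527), fell outside it in replicate 2. No test of a difference between regions was made with these 2 samples.

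By its strongest region, the order of the 8 genes in the pooled list was mig-5, sys-1, wrm-1, hmp-2, lit-1, dsh-2, pop-1 and pry-1. Both replicates kept wrm-1 above hmp-2 and both above lit-1. Between replicates, mig-5 and sys-1 changed places, as did each neighbouring pair from lit-1 down. The sys-1 region next to eif-3.C exceeded mig-5 in replicate 1 (356 against 348) and fell below it in replicate 2 (496 against 511). For dsh-2 the value in replicate 1 (33.5) was under those of lit-1, pop-1 and pry-1, and in replicate 2 (99.1) above all of them. The distal pop-1 region and the pry-1 region also swapped (41.4 against 46.9, then 66.5 against 29.8).

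**Figure D3:**
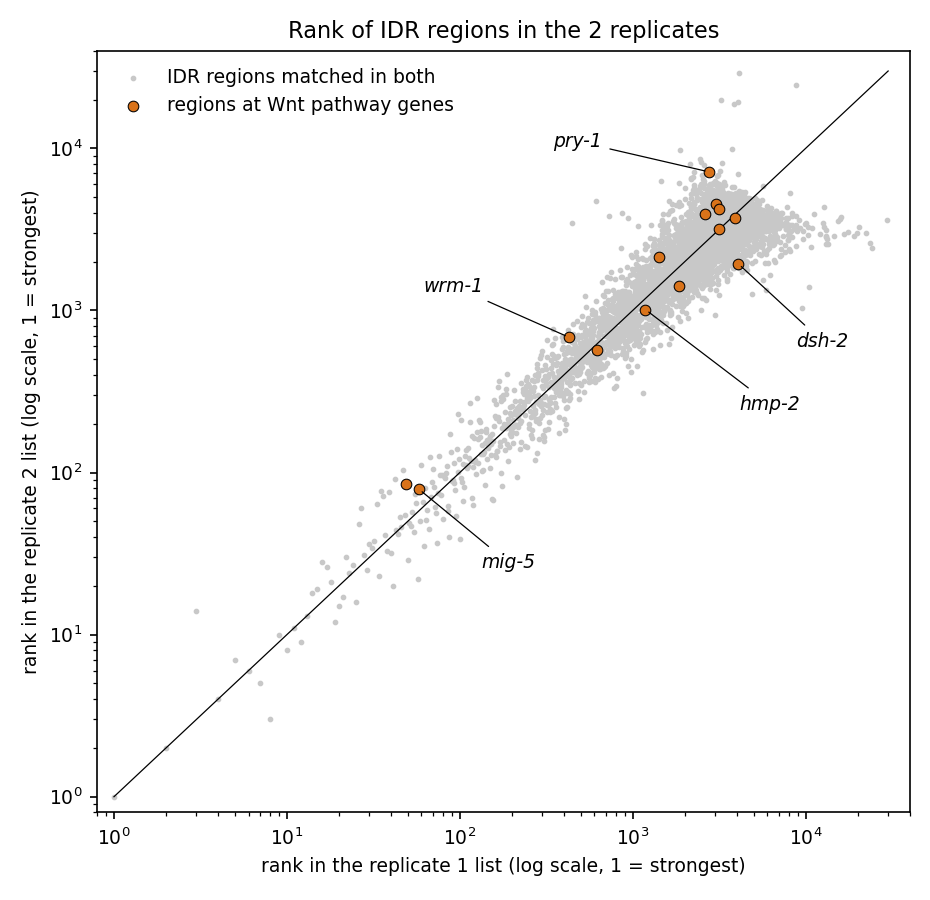
Rank of each IDR region in the list of replicate 1 (horizontal, log axis) and replicate 2 (vertical, log axis), where 1 is the strongest, with equality as a line. Grey points are the 4260 IDR regions matched in both lists and orange points the 14 regions at Wnt genes. In replicate 1 the orange points run from rank 49 (sys-1, next to eif-3.C) to 4074 (dsh-2). In replicate 2 they run from 79 (mig-5) to 7154 (pry-1), and pry-1 is the orange point farthest above the line.

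Genes outside the pathway with the pair of replicate ranks most like that of mig-5 (ranks 58 and 79) were cct-1, which has the same summit, eif-3.B (63 and 80) and eif-3.C (49 and 85), by Euclidean distance between log2 ranks over the 2 replicates. The eif-3.C summit is the one also assigned to sys-1, and eif-3.B encodes another subunit of eIF3.

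By position, 11 of the 14 summits were between genes, 2 in introns, 1 in a 5′ UTR and 0 in coding exons. Each of the 3 summits inside a gene lay in lit-1. For 11 of 14 the nearest protein-coding start was that of the Wnt gene, and the other 3 were those next to eif-3.C, his-68 and K05C4.7. Over all protein-coding genes, the mean number of IDR summits was 0.518 by the 5 kb rule. It was 0.211 with each summit given only to the nearest start. No tRNA, snRNA, snoRNA, rRNA or miRNA gene lay within 200 bp of any of the 14 summits. For position and for these noncoding genes, the shares over all IDR regions are not given here, and no difference was tested. The 2192 strongest IDR regions contained 7 of the 14, and their median signal was 151, against 145 over the list.

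Sequence matches around these summits were few. Within 50 bp, GGTGTGA occurred at 1 of the 14 summits, that of pry-1, and in 0.958% of all IDR summit windows. GGTGTG occurred at 2, pry-1 and lit-1 (5.20% of all). The TCF letters CTTTGAT occurred at 1, again pry-1 (0.798% of all), and CTTTGAA at 0 (1.57%). TGATAA was found at 1, wrm-1 (6.25%), and GAGAGA at 5, in 2 regions of sys-1 and 1 each of pry-1, lit-1 and pop-1 (28.2%). The 9 summits without GAGAGA include mig-5, dsh-2, wrm-1 and hmp-2. The median share of G and C bases was 48.5% over the 14 windows (range 41.6 to 57.4), against 46.5% over all IDR windows.

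Among 40 further genes of the pathway and genes reported to respond to it, 21 had an IDR summit by the 5 kb rule and 9 had one in a promoter, to be read against the same 36.1% and 15.6% of all protein-coding genes. Wnt ligand genes had 2 of 5, the strongest being the mom-2 window (signal 240), whose summit lay 3321 bp downstream of the mom-2 start and in the promoters of mpdu-1 and F38E1.6. No ligand gene had a promoter summit. Of 6 secretion genes 3 had a summit, and mom-1, which encodes the acyltransferase Porcupine, had the strongest region of the 50 pathway genes (signal 1141, rank 23 in the IDR list). It lay in an intron of mom-1, 3459 bp downstream of its start and nearest to the start of cest-16. The mom-1 promoter held a weaker region (112), which lies in the promoter of lev-9 as well and within 200 bp of a tRNA gene. The sorting nexin gene snx-3 shared its promoter region (111) with rad-54.L.

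The 7 genes grouped as receptors include the planar polarity gene vang-1. Of these, 4 had a summit, each with a signal below 145, the median of the IDR list. The Ror kinase gene cam-1 (93.3), the Ryk gene lin-18 (81.0) and the Van Gogh gene vang-1 (78.6) had it in a promoter, and the Frizzled gene lin-17 (114) in an intron, 742 bp downstream of a start. The secreted Frizzled-related gene sfrp-1 had a region of signal 137 and the Flamingo cadherin gene fmi-1 one of 81.4, both outside promoters. The fmi-1 region was unmatched in replicate 1. The dsh-1 summit (121) lay 2658 bp upstream, outside promoters and nearest to the start of EGAP2.2. With it, all 3 Dishevelled genes had a summit within reach, against 36.1% of all protein-coding genes. Of these summits, that of mig-5 is shared with cct-1. Of the 3 destruction complex genes beyond pry-1 and apr-1, each had 1. None of the 5 genes of the complex had a promoter summit, against 15.6% of all protein-coding genes, and no difference was tested. The strongest was that assigned to gsk-3, the glycogen synthase kinase gene (743), which lies 3255 bp upstream of it and in the promoter of Y18D10A.4. The kinase branch genes mom-4 and tap-1 had 0. The cadherin gene hmr-1, whose product binds HMP-2 at junctions, had an intronic region (198).

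Genes known to respond to Wnt signalling in C. elegans had a summit at 4 of 9, in each case in a promoter. By the same rules the shares over all protein-coding genes were 36.1%, and 15.6% for promoters. The list holds genes that other studies placed downstream of Wnt, and it was written with earlier results of these data known. The 4 were the zinc-finger gene tlp-1 (signal 417, replicate ranks 350 and 523), the Hox genes lin-39 (260, ranks 1065 and 929) and mab-5 (107, ranks 3489 and 3079), and the NK-2 homeobox gene ceh-22 (139, ranks 2567 and 2356). For the other 5 (psa-3, egl-18, elt-6, end-1 and ttx-3) no IDR summit lay in the gene or within 5 kb of a start.

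**Figure D4:**
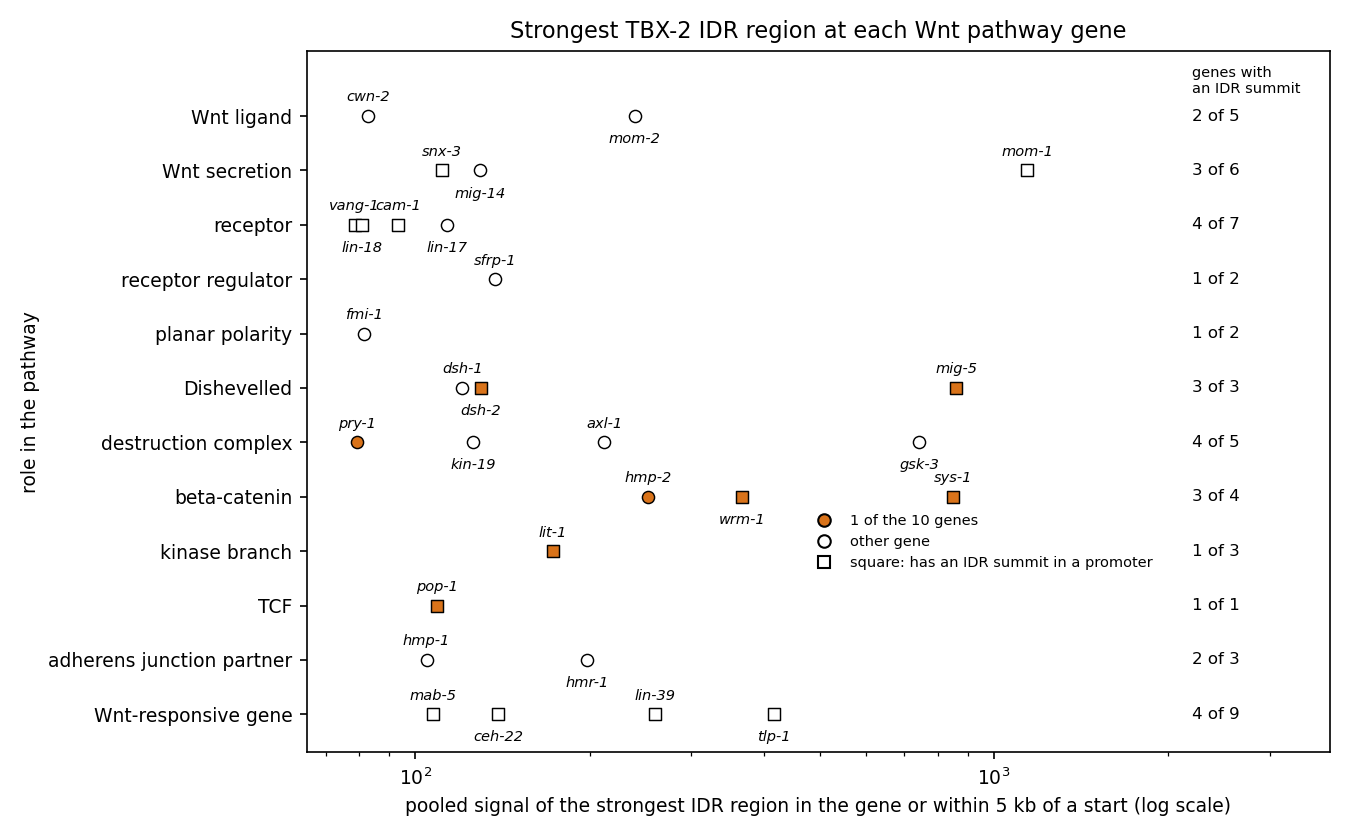
Pooled signal (log axis) of the strongest IDR region assigned to each of 50 pathway genes, by role, with the number of genes that had one at the right. Orange symbols are genes among the 10, and squares mark genes with an IDR summit in a promoter, which need not be the strongest region plotted (as for sys-1 and mom-1). Signals run from 78.6 at vang-1, plotted with the receptors, to 1141 at mom-1.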

How the data were processed

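The authors deposited peak lists for each of the 2 replicates, for both pooled (30000 regions each, peaks and background) and after IDR thresholding, derived from replicate and control alignments per the notes deposited with the samples. For aligner, caller and IDR threshold, names and settings are not given in the sources used here. Signal values deposited by the authors have no stated scale and were used to describe and rank regions. The −log10 q-value deposited by the authors is 4.01 for every region of the IDR list, so it ranks none of them. Read depth is unknown, and no interval was computed.

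All 4384 IDR regions on ce11 are the 4384 strongest pooled regions. Summits were assigned to genes of Ensembl release 115 (WBcel235), whose coordinates are those of ce11, and matched between lists to the nearest summit within 100 bp, with Python 3.11.15 and pandas 2.3.3. Assignment and matching were tested on simulated summits. Members, lists and motifs were chosen with earlier results of these data known. No test was made. Named beyond the 10 genes are pathway genes with a promoter summit and the strongest gene of each role. Genes sharing a member's summit and the 3 genes most like mig-5 are named as well. So are kinase branch and Wnt-responsive genes without an IDR summit, and genes next to a named gene or summit. Genes named for a small count were chosen after their values were seen. The ce10 lists gave only the number of their IDR regions.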

Additional observations from a re-analysis of the deposited data

How the results depend on the processing

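With the 4384 strongest regions of a single replicate in place of the IDR list, between 7 and 8 of the 10 genes had a summit. These held 13 to 14 summits, and 6 genes had one in a promoter. Of the 40 further genes 21 to 22 had a summit. Over all protein-coding genes the shares were 36.1% to 36.3%, and 15.5% to 15.6% for promoters. The gene lost without replicate 1 was pry-1. Among the 2192 strongest IDR regions, 5 genes, 7 summits and 7 of the 40 further genes were left, against 22.7% of all protein-coding genes, and 4 genes kept a promoter summit (9.49% of all). With each summit given only to the nearest start, 7 genes remained, without hmp-2, and 13 of the 40, against 16.8% of all. With 2 kb around starts, 8 genes and 13 of the 40 had one, against 23.2% of all. The promoter count was 4 (12.4% of all) with 500 bp upstream to 100 bp downstream and 8 (19.9% of all) with 2000 bp upstream. As many pooled regions as the ce10 IDR list holds, 5737, an alternative chosen after seeing the data, gave 9 genes, with apr-1 added, and 26 of the 40, against 41.5% of all. Motif counts within 100 bp rose from 0 to 1 for CTTTGAA and from 1 to 2 for CTTTGAT. No paired analysis was possible because there is 1 group. Depth is unknown, so weak regions such as that of pry-1 cannot be graded by read number.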

Other observations

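Exactly 7 of the 14 regions at the 10 genes were 400 bp wide, as were 49.0% of all IDR regions. These 7 had a median signal of 95.8 and the other 7, which were 129 to 333 bp wide, a median of 354. Over the whole IDR list the medians were 102 and 241, so width and signal moved together there as well.

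By chromosome, 4 of 5 members on chromosome I, both on II, both on III and the 1 on X with no summit compare with shares of 44.9%, 34.1%, 47.0% and 37.8% of protein-coding genes with an IDR summit there.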
